A study of Mus musculus with 12 samples.

Results

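The genes described here encode the subunits of the proteasome and the proteins that activate, inhibit or assemble it. They were taken as every gene symbol of the deposited table that begins with Psm, followed by 1 letter from a to g and a number, and that does not carry the pseudogene mark -ps. This gave 50 of the 30488 symbols. They comprise 8 alpha and 7 standard beta subunits of the 20S core, 3 immune beta subunits, 6 ATPases and 11 other subunits of the 19S particle. The remainder are 3 chaperones of 19S assembly, 4 of 20S assembly, 5 activators, 1 inhibitor, and 2 genes that share only the symbol: Psmc3ip, a cofactor of meiotic recombination, and Psme3ip1, a partner protein of the activator Psme3. Of the 50, 47 had a mean of at least 1 TPM and were tested, against 9152 of all genes. TPM is a level per transcript length, given as a share of a total that is the same in every library.

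RNA was sequenced from the gastrocnemius, a calf muscle, of 12 mice aged 32 weeks, 3 per group, kept on a standard diet. KO mice carry a Cas9 deletion of 303 bp, labelled as exons 2 and 3 of Gmppb, and are heterozygous. P32L mice are heterozygous for a change of base 95 that replaces proline 32 with leucine, and R287Q mice are homozygous for a change of base 860 that replaces arginine 287 with glutamine. WT mice are the wild type, and no group received a treatment. Gmppb encodes an enzyme that makes GDP-mannose, a sugar donor for glycoproteins such as alpha-dystroglycan. The labels name neither sex, litter nor batch, and the p-values measure the spread between these 3 mice per group. Gmppb itself had 3.37, 3.62 and 3.33 TPM in KO mice and 4.42, 3.02 and 3.61 TPM in WT mice, so its gene-level value did not set the KO mice apart.

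The proteasome degrades proteins that carry chains of ubiquitin. Its core, the 20S particle, is a barrel of stacked rings: alpha subunits form the outer gates, and beta subunits form the inner chamber, where 3 of them cut peptide bonds. The 19S particle caps the barrel. Its ATPases unfold the substrate and its other subunits catch ubiquitin chains and cut them off. Other caps, the activators, open the gate without using ubiquitin. Interferon signalling exchanges the cutting subunits Psmb6, Psmb7 and Psmb5 for the immune subunits Psmb9, Psmb10 and Psmb8, which favour peptides for class I antigen presentation. In muscle the proteasome carries out much of the loss of contractile protein in atrophy, after ligases such as Trim63 and Fbxo32 have tagged it. When proteasomes are inhibited, the transcription factor Nfe2l1 induces the subunit genes together through antioxidant response elements in their promoters.

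Each library is a share of a fixed total, and 53.0% to 58.4% of it was taken by transcripts of the mitochondrial genome. Together with 7 nuclear copies of these genes it was 72.6% to 78.8%. Depth cannot be known from TPM, so no counting interval is given. Ckm and Acta1, which mark muscle fibres, were at 1943 to 3288 TPM and 16079 to 23879 TPM over the 12 mice. The leukocyte marker Ptprc was at 0.0658 to 0.336 TPM, and no gene of the marker lists for other cell types was at 0 in any mouse. In bulk tissue fewer cells of a type and less RNA per cell cannot be told apart.

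In gastrocnemius the proteasome genes were above most others: 38 of the 47 tested members were above the median of all tested genes, and 12 were among the top 10% of them. Their own median was 12.4 TPM, against 3.84 TPM for all tested genes. Within each complex, where protein subunits assemble in equal numbers, transcript levels were far apart. The ratio of the highest to the lowest mean was 29.6 among the standard beta subunits and 40.6 among the 19S subunits that are not ATPases, but 2.36 among the ATPases.

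**Figure D1:**
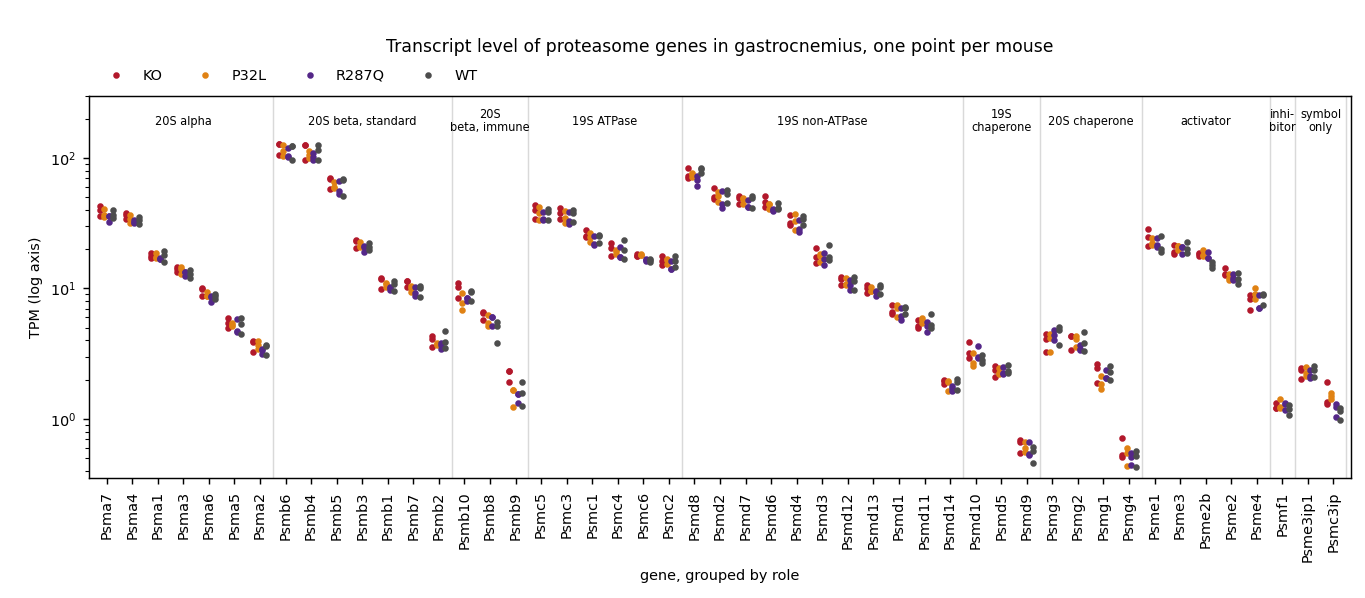
Transcript level in TPM (log axis) of 49 proteasome genes, grouped by role, with 1 point per mouse and the groups side by side in the order KO, P32L, R287Q and WT. Psma8, at or near 0, is not drawn. Distances between genes are much wider than those between groups of mice, and Psme2b is the 1 gene whose points in all 3 lines lie above those of WT.

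Of the alpha ring, Psma7 and Psma4 were the most abundant transcripts. Psma7 (chromosome 2, 180036374 to 180042433, minus strand) had 35.6, 39.9 and 42.5 TPM in KO mice, 40.3, 36.5 and 35.5 in P32L, 35.6, 32.2 and 35.6 in R287Q and 36.8, 39.8 and 34.8 in WT. Psma4 (chromosome 9, 54950790 to 54958030, plus strand), another structural alpha subunit, had 34.2, 36.5 and 37.6 TPM in KO mice, 36.5, 32.0 and 33.9 in P32L, 31.9, 32.1 and 33.6 in R287Q and 33.5, 35.4 and 31.1 in WT. In both genes the R287Q mice were below every KO mouse, and each line overlapped WT. The other standard alpha subunits averaged between 3.54 TPM for Psma2 and 17.5 TPM for Psma1. Psma8, the alpha subunit of the testis proteasome, had at most 0.00765 TPM in any mouse.

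Among the standard beta subunits, Psmb6, which cuts after acidic residues, and Psmb4, a subunit without a catalytic site, were the highest of all members. Psmb6 (chromosome 11, 70525367 to 70527858, plus strand) had 105, 127 and 127 TPM in KO mice, 125, 104 and 114 in P32L, 104, 101 and 119 in R287Q and 123, 124 and 96.1 in WT. Psmb4 (chromosome 3, 94884093 to 94886961, minus strand) had 97.1, 125 and 126 TPM in KO mice, 114, 99.8 and 105 in P32L, 101, 97 and 109 in R287Q and 125, 115 and 95.7 in WT. The lowest values of both genes were in a WT mouse, WT replicate 3, and the groups overlapped. Psmb5, which cuts after hydrophobic residues, averaged 61.9 TPM, and Psmb2 had the lowest mean of the ring at 3.85 TPM.

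The promoters of Psmb5 and Psmb6 each hold the core of an antioxidant response element, the letters TGACNNNGC. They are shown because this element is the known route by which Nfe2l1 drives subunit genes, and because both encode cutting subunits. The windows are 80 bases from RefSeq on GRCm38.p6, written 5′ to 3′ on the gene's strand, with the matching letters in capitals. The Psmb5 window is chr14:54618023-54618102 (minus strand), and its match begins 47 bases before the RefSeq start of the gene and 20 bases before its start in GENCODE M21. The Psmb6 window is chr11:70525277-70525356 (plus strand), with the match beginning 9 bases before the RefSeq start and 19 bases before that of GENCODE M21.
Psmb5: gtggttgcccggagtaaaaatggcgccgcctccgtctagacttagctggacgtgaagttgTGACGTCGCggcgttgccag
Psmb6: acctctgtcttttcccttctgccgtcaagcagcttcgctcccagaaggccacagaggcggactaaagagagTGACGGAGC
A match is a description of letters and was not tested for binding.

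RefSeq promoters, 250 bases before to 50 bases after each start, were found for 42 member genes, 46 promoters in all. On either strand, 6 of the 46 (13%) held TGACNNNGC, against 12.4% of 32851 promoters of all genes. The 6 were those of Psmb5, Psmb6, Psmc6, Psmd9, Psmd12 and Psme4. The GC box GGGCGG was in 25 (54.3%), against 35.7% of all promoters, and the CCAAT box in 15 (32.6%), against 37.4%. The TATA box TATAAA was in 4 (8.7%), against 13.6%. Of the interferon elements, the core of the interferon-stimulated response element, a pair of GAAA stretches 2 bases apart, was in 5 (10.9%), against 3.44%, and these were the promoters of Psmb3, Psmd4, Psmd9, Psme1 and Psmg4. The core TTCNNNGAA was in 3 (6.52%), against 8.3%, namely Psmb8, Psmd2 and Psmg1.

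The ATPases of the 19S base were close in level. Psmc5 (chromosome 11, 106256154 to 106263120, plus strand) had 34.2, 43.4 and 39.8 TPM in KO mice, 41.8, 33.4 and 37.7 in P32L, 33.2, 34.2 and 38.3 in R287Q and 40.5, 38.7 and 33.5 in WT. Psmc3 (chromosome 2, 91054009 to 91066369, plus strand) had 34.2, 41.7 and 38.1 TPM in KO mice, 39.4, 31.8 and 34.9 in P32L, 32.7, 31.0 and 38.7 in R287Q and 37.7, 39.9 and 32.1 in WT. Psmc2 (chromosome 5, 21785283 to 21803787, plus strand) was lower, with 15.1, 17.7 and 16.1 TPM in KO mice, 16.9, 15.5 and 16.5 in P32L, 14, 14.1 and 16.1 in R287Q and 17.6, 16.1 and 14.6 in WT. These 3 ATPases overlapped between every line and WT. Psmc6 (chromosome 14, 45329788 to 45349705, plus strand) varied least of the 47 tested members between mice of a group, with a pooled SD of 0.028 on the log2(TPM + 1) scale. It had 17.8, 17.7 and 18.2 TPM in KO mice, 18.0, 18.1 and 18.5 in P32L, 16.7, 16.3 and 16.6 in R287Q and 16.6, 16.9 and 15.9 in WT, so that both the KO and the P32L mice were above WT while R287Q overlapped it.

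Of the other 19S subunits, Psmd8, a part of the lid, and Psmd2, a large scaffold of the base, were the highest. Psmd8 (chromosome 7, 29174188 to 29180701, minus strand) had 73.1, 83.0 and 70.7 TPM in KO mice, 75.9, 71.8 and 77.3 in P32L, 67.4, 61.3 and 73.3 in R287Q and 82.0, 83.3 and 76.6 in WT, and all 3 R287Q mice were below all 3 WT mice. Psmd2 (chromosome 16, 20651652 to 20663414, plus strand) had 49.8, 59.2 and 48.3 TPM in KO mice, 54.4, 45.9 and 51.5 in P32L, 41.6, 44.3 and 56.2 in R287Q and 56.8, 52.9 and 45.2 in WT. Psmd4 (chromosome 3, 95032694 to 95042614, minus strand), which holds ubiquitin chains, had 30.8, 36.5 and 31.9 TPM in KO mice, 37.4, 27.8 and 32.6 in P32L, 27.0, 28.7 and 33.2 in R287Q and 34.0, 36.0 and 30.6 in WT. Groups overlapped with WT in Psmd2 and Psmd4. The lid subunit Psmd6 (chromosome 14, 14112174 to 14120984, minus strand) had 42.2, 50.8 and 46.0 TPM in KO mice, 44.2, 40.9 and 44.2 in P32L, 40.1, 39.0 and 40.8 in R287Q and 45.0, 41.3 and 40.4 in WT, with R287Q below both other lines. Psmd11 (chromosome 11, 80428615 to 80473248, plus strand), which ties the lid to the core, had 4.98, 5.77 and 5.13 TPM in KO mice, 5.71, 5.39 and 5.94 in P32L, 4.65, 5.13 and 5.53 in R287Q and 6.39, 5.29 and 5.01 in WT. Psmd14, which cuts ubiquitin from the substrate, had the lowest mean of this role at 1.84 TPM.

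The chaperones of assembly were low. Psmd10 (chromosome X, 140948429 to 140956728, minus strand), gankyrin, had 2.92, 3.88 and 3.21 TPM in KO mice, 3.18, 2.7 and 2.53 in P32L, 2.92, 2.97 and 3.65 in R287Q and 3.11, 2.69 and 2.82 in WT. Psmd5 (chromosome 2, 34849734 to 34874968, minus strand) had 2.1, 2.56 and 2.37 TPM in KO mice, 2.47, 2.19 and 2.25 in P32L, 2.19, 2.25 and 2.49 in R287Q and 2.59, 2.33 and 2.23 in WT. Both overlapped between groups, and the third 19S chaperone, Psmd9, averaged 0.591 TPM and was not tested. For the 20S core, Psmg3 (chromosome 5, 139823592 to 139826885, minus strand) had 3.28, 4.44 and 4.11 TPM in KO mice, 4.49, 3.23 and 4.18 in P32L, 4.05, 4.41 and 4.81 in R287Q and 5.1, 4.78 and 3.67 in WT. Psmg2 (chromosome 18, 67641599 to 67654162, plus strand) had 3.38, 4.31 and 4.32 TPM in KO mice, 4.09, 3.56 and 4.3 in P32L, 3.36, 3.67 and 3.42 in R287Q and 4.6, 3.8 and 3.32 in WT. Psmg1 (chromosome 16, 95979933 to 95990960, minus strand), which pairs with Psmg2 on the alpha ring, had 1.89, 2.62 and 2.47 TPM in KO mice, 2.13, 1.71 and 1.84 in P32L, 2.05, 2.05 and 2.35 in R287Q and 2.54, 2.3 and 1.97 in WT. In these 3 genes every line overlapped WT as deposited. Psmg3 had the widest spread within groups of all members, an SD of 0.18 on the log2(TPM + 1) scale, and 2816 of its 3294 bp lie within the annotated gene Gm26938 on the same strand. Psmg4 averaged 0.529 TPM and was not tested.

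Of the caps other than the 19S particle, Psme1 and Psme2 together form the activator that interferon induces. Psme1 (chromosome 14, 55578123 to 55581529, plus strand) had 21.1, 24.9 and 28.4 TPM in KO mice, 24.2, 21.7 and 22.4 in P32L, 20.8, 24.4 and 21.5 in R287Q and 25.1, 20.1 and 19.1 in WT. Psme2 (chromosome 14, 55587441 to 55591113, minus strand) had 12.8, 12.7 and 14.3 TPM in KO mice, 12.1, 12.8 and 11.7 in P32L, 11.6, 12.1 and 12.9 in R287Q and 13.1, 11.9 and 10.9 in WT. Both overlapped between groups, with the highest Psme1 and Psme2 values in KO replicate 3. Psme3 (chromosome 11, 101316213 to 101323537, plus strand), the activator of the nucleus, had 18.5, 21.5 and 18.9 TPM in KO mice, 21.3, 19.7 and 21 in P32L, 18.3, 20.6 and 20.8 in R287Q and 22.8, 18.8 and 20.1 in WT. Psme4 (chromosome 11, 30771726 to 30880361, plus strand), the large activator that acts on acetylated histones, had 8.25, 8.98 and 6.88 TPM in KO mice, 8.99, 8.33 and 10.1 in P32L, 7.04, 7.13 and 8.98 in R287Q and 9.1, 8.88 and 7.47 in WT. Neither separated a line from WT. The inhibitor Psmf1 (chromosome 2, 151715812 to 151744186, minus strand) was the lowest of the 47 tested members at 1.25 TPM on average, with 1.33, 1.22 and 1.22 TPM in KO mice, 1.21, 1.24 and 1.42 in P32L, 1.17, 1.32 and 1.3 in R287Q and 1.27, 1.19 and 1.07 in WT. Psme3ip1, which GENCODE M21 does not list under this symbol, had 2.02, 2.45 and 2.35 TPM in KO mice, 2.51, 2.13 and 2.26 in P32L, 2.05, 2.15 and 2.36 in R287Q and 2.53, 2.35 and 2.09 in WT.

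Psme2b (chromosome 11, 48945354 to 48946190, minus strand) is a near copy of Psme2. Its transcript matched that of Psme2 at 789 of 794 aligned bases, or 99.4%. It had 18.7, 17.6 and 18.3 TPM in KO mice, 19.6, 17.8 and 17.9 in P32L, 17.1, 19 and 17.1 in R287Q and 14.4, 15.1 and 16.0 in WT. Each of the 9 mutant mice was above each of the 3 WT mice, and this was the 1 member of 47 with that pattern, against 37 of all 9152 tested genes (0.404%). The reverse pattern was seen in 0 members, against 30 of all genes (0.328%). Short reads can be split between Psme2 and Psme2b in a way that the deposited values do not show, so the level of each is uncertain. The gene also lies wholly within Gm12185 on the same strand, which was at 0.0283 to 0.0979 TPM.

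The sum of Psme2 and Psme2b is less open to that split. As TPM is a level per transcript length, reads moved between genes of unlike length still change it. It was 31.5, 30.3 and 32.6 TPM in KO mice, 31.7, 30.6 and 29.6 in P32L, 28.7, 31.1 and 30.0 in R287Q and 27.6, 27.0 and 27.0 in WT, again without overlap. Psme2b per 100 Psme2 was 145, 139 and 129 in KO, 161, 139 and 152 in P32L, 147, 157 and 133 in R287Q and 109.9, 127 and 146 in WT, and here WT overlapped every line. On another scale WT overlapped the lines, while the fold change was of similar size. After removal of the mitochondrial genes and 7 nuclear copies of them, with the rest brought to a common sum, Psme2b had 84.5, 64.3 and 75.3 rescaled TPM in KO and 77.5, 81.7 and 75.1 in P32L. On that scale it had 81.0, 88.9 and 71.3 in R287Q and 56.8, 64.1 and 75.3 in WT. WT replicate 3, which had the highest share of mitochondrial genome transcripts of the 12 mice, was then within the range of each line. The sum of Psme2 and Psme2b overlapped WT in each line there too. It was 143, 111 and 134 rescaled TPM in KO, 126, 141 and 124 in P32L, 136, 146 and 125 in R287Q and 108, 115 and 127 in WT. The log2 fold change of Psme2b against WT on the rescaled values was 0.19 in KO, 0.26 in P32L and 0.30 in R287Q (limma adjusted p = 0.577, 0.610 and 0.602).

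In several mice most members lay on the same side of their means. In KO replicate 2, 45 of 47 members were above their mean over the 12 mice, with a median deviation of 0.14 on the log2(TPM + 1) scale. Of all tested genes 75.9% were, with a median of 0.087. In R287Q replicate 1, 1 of 47 members was above the mean, with a median of -0.11, against 18.3% and -0.11 for all tested genes. WT mice were as far apart as this, with 37, 31 and 3 members above the mean and medians of 0.10, 0.041 and -0.11 in replicates 1 to 3. For all tested genes these were 75.4%, 45.6% and 26.9%, with medians of 0.098, -0.014 and -0.063. The other KO mice, replicates 1 and 3, had 11 and 37 members above the mean, the P32L mice 41, 6 and 29, and the other R287Q mice 6 and 27. The shares of all tested genes were 24.7% and 57.1% in these KO mice, 81.3%, 37.5% and 49.1% in P32L, and 37.8% and 66.3% in these R287Q mice. Every group thus held mice on both sides.

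At the extremes these shifts went with the share of the library that mitochondrial transcripts took. That share was lowest, 53.0%, in KO replicate 2, the mouse with the highest median, and highest, 58.4%, in WT replicate 3, where 3 members were above the mean. With nuclear copies of the mitochondrial genes counted, the lowest was again KO replicate 2, at 72.6%, and the highest R287Q replicate 1, at 78.8%. WT replicate 3 was at 78.7%. The summed level of the members was 921 to 1139 TPM over the 12 mice, a 1.24-fold range. After removal of these genes and of their nuclear copies, it was 4165 to 4508 rescaled TPM, a 1.08-fold range. The SD of the 12 median deviations was 0.089 as deposited and 0.032 after this step, and KO replicate 2 then had the lowest median, -0.075. The 19S subunits summed to between 90.3 and 106 per 100 of the 20S sum in every mouse. Abundant genes weigh most in these sums, so the ratio does not describe single subunits.

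**Figure D2:**
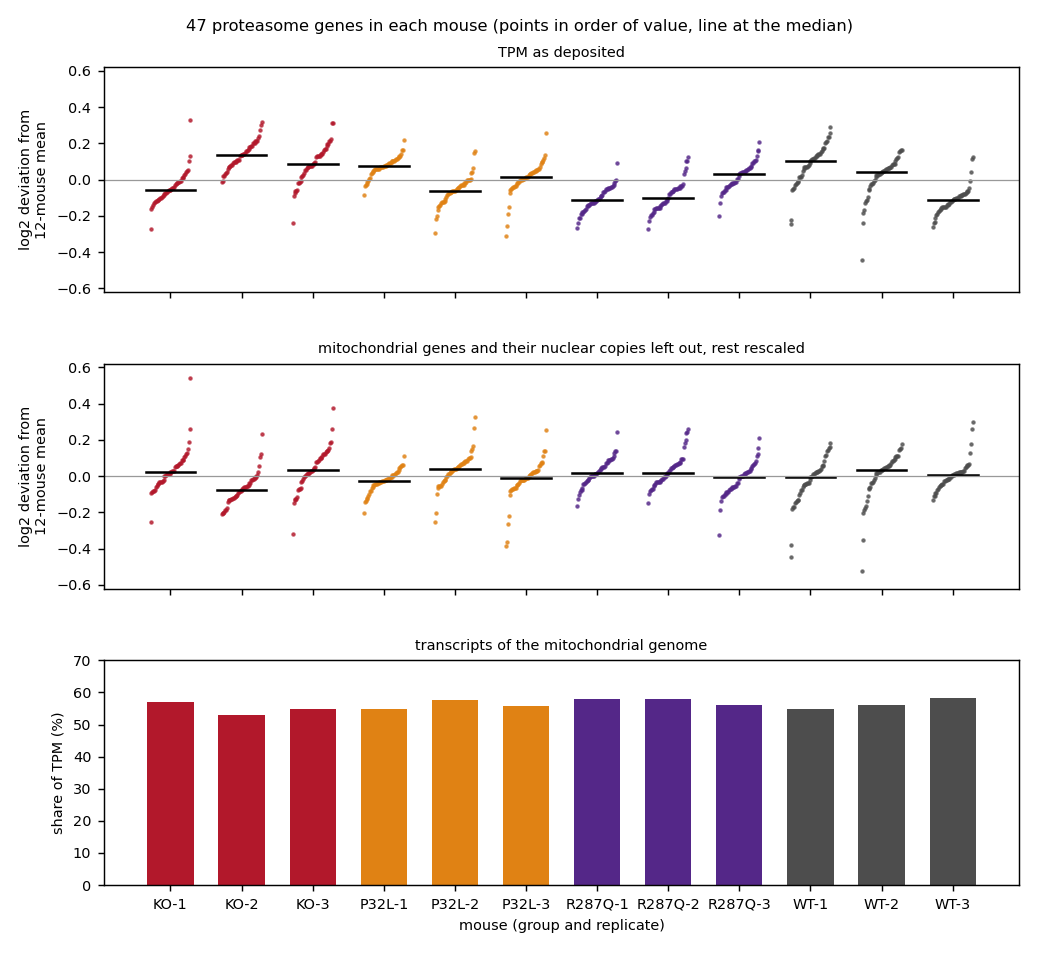
Deviation of each of the 47 tested members from its mean over the 12 mice, on the log2(TPM + 1) scale, with points in order of value and a line at the median, as deposited (upper panel) and after removal of mitochondrial genes and their copies (middle panel); bars in the lower panel give the mitochondrial share of TPM from 0. As deposited the medians run between -0.11 and 0.14, and in the middle panel between -0.075 and 0.039.

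Against WT, KO muscle had 36 of 47 members higher, with a median log2 fold change of 0.052, where 52.1% of all tested genes were higher and their median was 0.0063. Log2 fold changes here and below are differences between group means of log2(TPM + 1), tested with limma over all tested genes. No member passed an adjusted p under 0.05 (Benjamini-Hochberg), and 1 of the 9152 genes did (0.0109%). At an unadjusted p under 0.05 there were 4 members, all higher, where 5.95% of all genes had such a p. They were Psme2b, Psmb9, Psmb8 and Psmc3ip. The 3 smallest p on the lower side belonged to Psmg3 (-0.16), Psme3 (-0.063) and Psmd8 (-0.094), and all overlapped WT. Groups did not overlap in 5 members, all higher (Psmb8, Psmb9, Psmc3ip, Psmc6 and Psme2b), where 4.39% of all genes were higher without overlap, and in 0 members lower, where 3.47% were.

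By role in KO, the alpha ring had 7 of 7 tested members higher (median log2 fold change 0.081), the standard beta ring 6 of 7 (0.073), the immune subunits 3 of 3 (0.31) and the ATPases 6 of 6 (0.054). The other 19S subunits had 6 of 11 higher, with a median of 0.0066. After removal of mitochondrial genes and their copies, when 49 members and 14394 genes reached 1 rescaled TPM, the median was -0.0092 over the members and -0.050 over all tested genes. Without WT replicate 3 it was -0.038 over the members and -0.029 over all tested genes. On the rescaled values 0 of the 47 members were higher than WT without overlap, and 4 were lower (Psmc2, Psmd5, Psmg3 and Psme3ip1), against 3.48% and 11.2% of 9108 genes. These are the genes tested as deposited that remained after the removal. Shares without overlap on the rescaled values are over the same genes for P32L and R287Q below. Psmg3 had 14.8, 16.2 and 16.9 rescaled TPM in KO against 20, 20.3 and 17.2 in WT, a log2 fold change of -0.25 (limma adjusted p = 0.368). On the deposited values Psme2b had the smallest p of the members, with a log2 fold change of 0.25 and an SE of 0.078 (limma adjusted p = 0.583). Psmc3ip (chromosome 11, 101091823 to 101095436, minus strand) had 1.91, 1.3 and 1.35 TPM in KO mice, 1.49, 1.59 and 1.42 in P32L, 1.04, 1.23 and 1.29 in R287Q and 0.983, 1.15 and 1.21 in WT. Its log2 fold change was 0.25 (SE 0.093, limma adjusted p = 0.700), and 385 of its bases overlap Mlx on the other strand, which an unstranded library cannot tell apart. Mlx averaged 6.3 TPM, against 1.33 TPM for Psmc3ip.

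In P32L muscle the members were centred on WT. With 28 of 47 higher, their median log2 fold change was 0.0081, where 55.5% of all tested genes were higher with a median of 0.015. By limma 0 members had an adjusted p under 0.05, against 4 of all genes (0.0437%), and 2 members had an unadjusted p under 0.05, against 6.52% of all genes. These were Psme2b, at 0.26 (SE 0.078, limma adjusted p = 0.418), and Psmc3ip, at 0.24 (SE 0.093, limma adjusted p = 0.634). Psmc6 came next at 0.13, with 18.2 ± 0.262 TPM in P32L against 16.5 ± 0.539 TPM in WT (SD, n = 3 mice each). These 3 were also the members without overlap, all higher, against 5.56% of all genes higher and 3.65% lower. On the lower side the 20S chaperones Psmg1 (-0.18) and Psmg3 (-0.15) and the immune subunit Psmb10 (-0.16) had the smallest p and overlapped WT. On the rescaled values Psmg1 did not overlap, with 8.43, 7.84 and 7.72 in P32L against 10, 9.78 and 9.24 in WT, a log2 fold change of -0.25 (limma adjusted p = 0.287). It was the 1 member lower than WT without overlap on that scale, against 6.49% of all genes, and Psmc3ip was the 1 member higher, against 5.82%.

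R287Q muscle had 9 of 47 members higher and 38 lower, with a median log2 fold change of -0.071, where 36.8% of all tested genes were higher and their median was -0.036. The standard beta subunits were lower in 7 of 7 and the 19S subunits other than ATPases in 11 of 11, with medians of -0.071 and -0.10. After removal of mitochondrial genes and their copies the median was 0.0026 over the members and 0.030 over all tested genes. By limma 0 members and 0 of all genes (0%) had an adjusted p under 0.05. At an unadjusted p under 0.05 there were 2 members, against 5.36% of all genes. One was Psmd8, at 67.4 ± 5.99 TPM in R287Q against 80.6 ± 3.59 TPM in WT (SD, n = 3 mice each), a log2 fold change of -0.26 with an SE of 0.094 (limma adjusted p = 0.788).

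Psmd8 was the 1 member lower than WT without overlap, where 5.99% of all genes were. It was also without overlap on the rescaled values, with 319, 288 and 305 in R287Q against 323, 354 and 359.9 in WT. Psmc2 was also lower without overlap there, so that 2 members were, against 4.42% of all genes, and 3 were higher (Psmd10, Psme2 and Psmf1), against 6.88%. The other member was Psme2b, at 0.21 (SE 0.078, limma adjusted p = 0.796), the 1 member higher without overlap, against 3.02% of all genes. Psmb8 (0.22) and Psmd10 (0.11) were next on the higher side, and Psmd4 (-0.17) and Psmc2 (-0.12) on the lower. The 3 lines were each set against the same WT mice, so a low or high WT value is shared by all 3 comparisons.

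**Figure D3:**
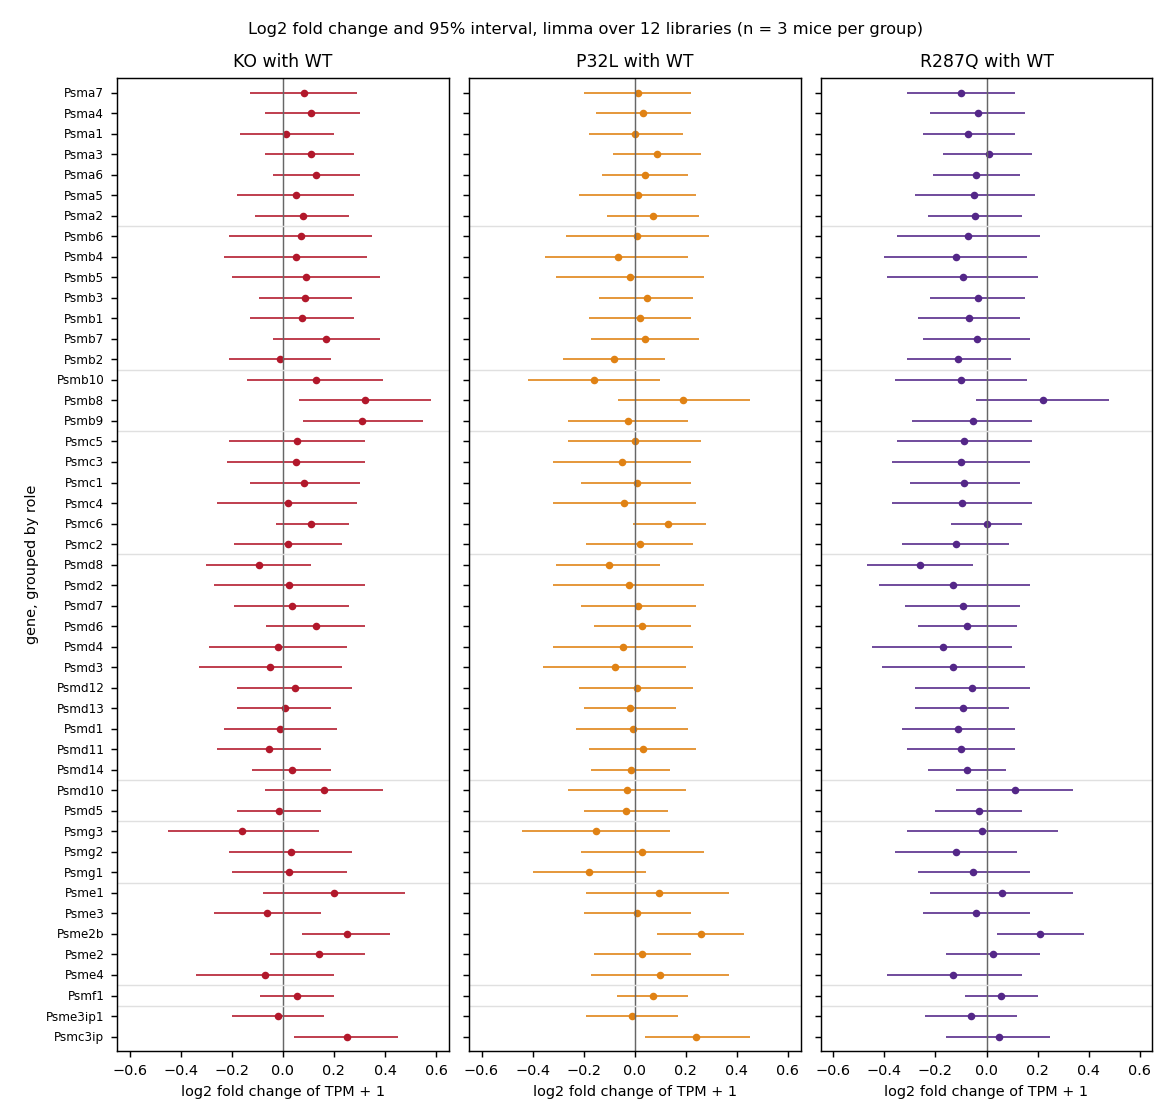
Log2 fold change of TPM + 1 against WT for the 47 tested members, ordered by role, in KO, P32L and R287Q (points), with 95% intervals from limma (bars, n = 3 mice per group). Most intervals span 0; Psmb8 and Psmb9 in KO, Psmd8 in R287Q and Psme2b in all 3 lines are among those that do not, and none of these passed the adjustment over all genes.

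Of the immune subunits, Psmb8 averaged 5.61 TPM and Psmb9 1.70 TPM over the 12 mice, far below the means of their counterparts Psmb5 and Psmb6. Psmb10 averaged 8.79 TPM, close to the 10 TPM of its counterpart Psmb7. Psmb8 (chromosome 17, 34197721 to 34201454, plus strand) had 5.69, 6.43 and 6.63 TPM in KO mice, 5.19, 6.28 and 5.4 in P32L, 5.99, 6.06 and 5.18 in R287Q and 5.5, 3.83 and 5.16 in WT. Psmb9 (chromosome 17, 34181987 to 34187764, minus strand) had 1.93, 2.33 and 2.32 TPM in KO mice, 1.68, 1.67 and 1.24 in P32L, 1.55, 1.55 and 1.32 in R287Q and 1.57, 1.26 and 1.91 in WT. Both genes had all KO mice above all WT mice, and the other lines overlapped WT. Psmb10 (chromosome 8, 105935735 to 105938444, minus strand) had 8.42, 11 and 10.3 TPM in KO mice, 9.22, 7.8 and 6.84 in P32L, 7.95, 8.5 and 8.45 in R287Q and 9.45, 7.95 and 9.54 in WT, with every line overlapping WT.

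In KO mice the log2 fold change against WT was 0.32 for Psmb8 (SE 0.12, limma adjusted p = 0.675) and 0.31 for Psmb9 (SE 0.11, limma adjusted p = 0.621). WT replicate 2 had the lowest level of Psmb8 of the 12 mice, and without it these values were 0.19 and 0.22. On the rescaled values both genes overlapped WT, with 25.7, 23.5 and 27.2 for Psmb8 in KO against 21.6, 16.3 and 24.3 in WT, and 8.73, 8.54 and 9.54 for Psmb9 in KO against 6.18, 5.36 and 8.98 in WT. Their log2 fold changes on that scale were 0.30 and 0.37 (limma adjusted p = 0.511 and 0.463). These cannot be compared in size with the deposited ones, which the 1 added to TPM before the log shrinks more at such low levels. Annotated genes overlap all 3 on the other strand: Tap1 over 212 bp of Psmb9, Gm20496 over 2139 bp of Psmb8 and Gm16156 over the whole of Psmb10. Reads from there cannot be assigned in an unstranded library. Tap1 averaged 1.55 TPM, against 1.70 TPM for Psmb9, and Gm16156 was at or below 0.0566 TPM.

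Set against their standard counterparts, the immune subunits did not separate any line from WT. Psmb9 per 100 Psmb6 was 1.84, 1.84 and 1.83 in KO, 1.35, 1.60 and 1.08 in P32L, 1.49, 1.53 and 1.11 in R287Q and 1.27, 1.02 and 1.99 in WT. Psmb8 per 100 Psmb5 was 9.75, 9.28 and 9.38 in KO, 7.99, 10.7 and 9.07 in P32L, 10.8, 11.6 and 7.81 in R287Q and 8.0, 5.71 and 10.1 in WT. Psmb10 per 100 Psmb7 was 82.2, 95.7 and 91.1 in KO, 87.6, 82.5 and 68.3 in P32L, 86.2, 97.8 and 81.9 in R287Q and 93.6, 75.7 and 112 in WT. In all 3 ratios the WT mice spanned the widest range and the KO mice the narrowest.

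Macrophages and other leukocytes are rich in immune subunits. The summed level of their markers was 64.3 to 117 TPM in KO, 51.1 to 66.3 in P32L, 45.2 to 65.8 in R287Q and 24.9 to 68.0 in WT, where WT replicate 2 was the lowest. All 9 tested markers were higher in KO than in WT, 8 of them with an unadjusted p under 0.05, against 5.95% of all genes, and 0 passed the adjustment. Markers of some other cell types were higher in KO too, with 8 of 8 for fibroblasts (median log2 fold change 0.36), 6 of 6 for Schwann cells (0.51) and 4 of 4 for erythroid cells (0.56), against 0.73 for the leukocyte markers. Adipocyte markers were higher in 5 of 6 (0.22) and muscle fibre markers in 6 of 10 (0.024). Others were mostly lower, with 2 of 5 higher for endothelium (-0.039) and smooth muscle (-0.0063), and 1 of 8 for slow fibres (-0.31). Of all tested genes 52.1% were higher. In P32L 9 of 9 leukocyte markers and in R287Q 8 of 9 were higher than WT. The log2 fold change in P32L and R287Q was 0.19 and 0.22 for Psmb8, -0.026 and -0.054 for Psmb9 and -0.16 and -0.099 for Psmb10. The part of these cells in the values of the immune subunits was not tested.

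**Figure D4:**
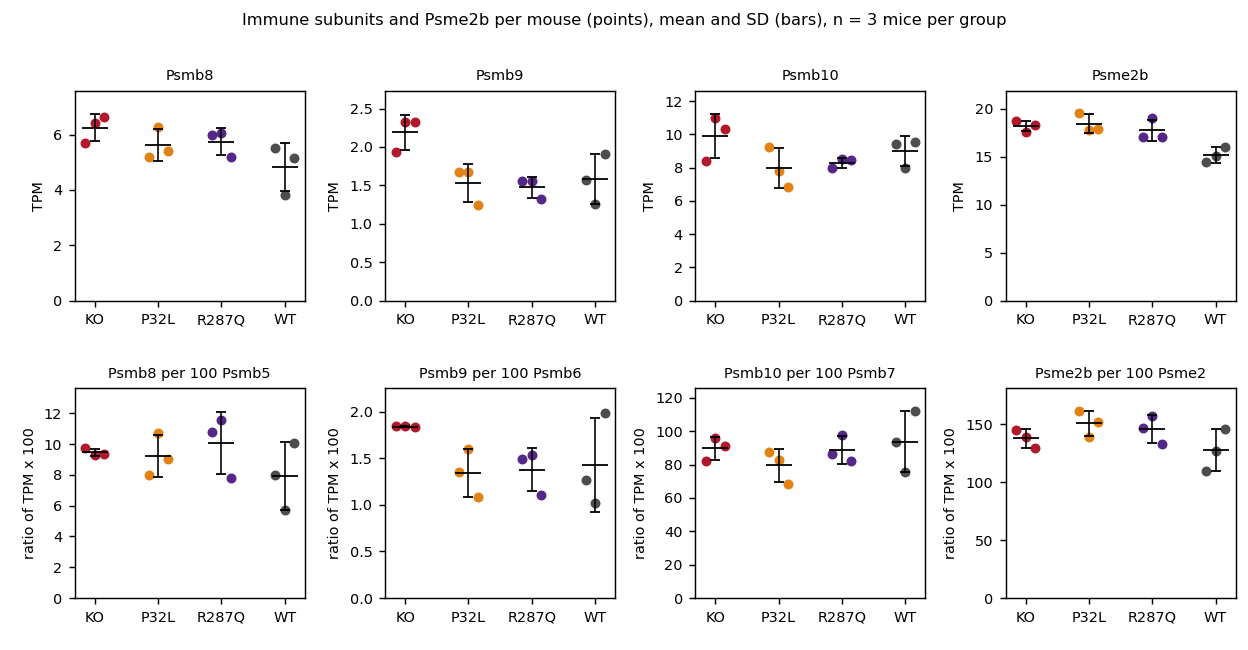
Levels in TPM (upper row) of Psmb8, Psmb9, Psmb10 and Psme2b, and their ratio per 100 of Psmb5, Psmb6, Psmb7 and Psme2 (lower row), with 1 point per mouse and the mean and SD of 3 mice, for KO, P32L, R287Q and WT from left to right. KO mice lie above WT in Psmb8 and Psmb9 and within the WT range in their ratios; Psme2b lies above WT in all 3 lines, and its ratio to Psme2 overlaps WT in each.

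Between the lines, P32L had 9 of 47 members higher than KO and 38 lower, with a median log2 fold change of -0.042, where 51.4% of all tested genes were higher. By limma 0 members and 2 of all genes (0.0219%) had an adjusted p under 0.05, and 2 members had an unadjusted p under 0.05, against 8.01% of all genes. Both were immune subunits. Psmb9 averaged 1.53 ± 0.252 TPM in P32L and 2.2 ± 0.23 TPM in KO (SD, n = 3 mice each), a log2 fold change of -0.34 with an SE of 0.11 (limma adjusted p = 0.478). It was the 1 member without overlap, lower in P32L, where 4.98% of all genes were lower without overlap. Psmb10 averaged 7.95 ± 1.2 TPM in P32L and 9.92 ± 1.35 TPM in KO, at -0.29 (SE 0.12, limma adjusted p = 0.588). On the higher side, Psme4 (0.17) and Psmd11 (0.087) had the smallest p.

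The most one-sided split of the 6 comparisons was that of the homozygous R287Q line with KO, with 3 of 47 members higher and 44 lower. The median log2 fold change was -0.12, where 34.6% of all tested genes were higher and their median was -0.046. By limma 0 members had an adjusted p under 0.05, against 4 of all genes (0.0437%). An unadjusted p under 0.05 was found for 4 members, all lower, against 7.93% of all genes: Psmb9 (-0.37, SE 0.11, limma adjusted p = 0.361), Psmd6 (-0.20), Psma6 (-0.17) and Psmb7 (-0.21). Groups did not overlap in 9 members, all lower in R287Q, where 7.97% of all genes were. The 3 higher members were Psmg3 (0.14), Psme3 (0.020) and Psmf1 (0.0035). Those without overlap were Psma1, Psma4, Psma6, Psma7, Psmb9, Psmc6, Psmd6, Psmd14 and Psmc3ip. After removal of mitochondrial genes and their copies the median was 0.0085 over the members and 0.080 over all tested genes. Psmb9 was at -0.37 there (limma adjusted p = 0.360). The deposited and rescaled fold changes of Psmb9 cannot be compared in size. The 1 added to TPM before the log shrinks the deposited one more, at 1.48 TPM in R287Q and 2.2 TPM in KO. The mitochondrial share was 57.9%, 57.9% and 56.1% in R287Q and 57.1%, 53.0% and 54.7% in KO.

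Set against P32L, R287Q had 6 of 47 members higher and 41 lower, with a median of -0.074, where 32.7% of all tested genes were higher and their median was -0.049. By limma 0 members and 0 of all genes (0%) had an adjusted p under 0.05, and 0 members had an unadjusted p under 0.05, against 6.67% of all genes. In 6 members R287Q was lower without overlap, where 10.2% of all genes were: Psma1, Psma2, Psma6, Psmc6, Psmd6 and Psmc3ip. The smallest p on the lower side were those of Psmc3ip (-0.19) and Psmc6 (-0.13), and on the higher side those of Psmd10 (0.14) and Psmg1 (0.13). After removal of mitochondrial genes and their copies the median was 0.0094 over the members and 0.025 over all tested genes. The smallest p there were those of Psmg1 (0.25), Psmd10 (0.25) and Psmg3 (0.24), all higher and under 0.05 before adjustment (limma adjusted p = 0.391, 0.462 and 0.535).

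Proteins that work on the proteasome without carrying a Psm symbol were read from the same fit, as 17 tested partners. Of these, 5 were higher than WT in KO, 10 in P32L and 3 in R287Q, where 52.1%, 55.5% and 36.8% of all tested genes were higher. An unadjusted p under 0.05 was found for 5.95%, 6.52% and 5.36% of all genes in KO, P32L and R287Q, and for 0 of the partners in any line. Sem1, a small lid subunit, had 6.31, 7.21 and 7.45 TPM in KO mice, 6.15, 6.06 and 5.85 in P32L, 6.0, 4.77 and 6.32 in R287Q and 5.99, 6.55 and 5.03 in WT. Zfand5, which stimulates the 26S proteasome, had 59.2, 64.8 and 59.1 TPM in KO mice, 67.4, 62.9 and 74.1 in P32L, 56.9, 60.8 and 65.4 in R287Q and 66.8, 61.2 and 52.7 in WT. Ddi2, the protease that releases Nfe2l1 in its active form, had 4.59, 4.87 and 3.74 TPM in KO mice, 6.18, 4.97 and 6.43 in P32L, 4.42, 4.78 and 5.93 in R287Q and 5.35, 5.74 and 4.63 in WT, and no line was apart from WT in these 3 genes. The deubiquitinases Uchl5 and Usp14 and the shuttle Rad23b, the other genes with the smallest p of the list, had log2 fold changes of 0.11, -0.054 and -0.086 in KO, 0.095, -0.0028 and -0.075 in P32L and 0.044, -0.11 and -0.20 in R287Q.

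Regulators of proteasome transcription were higher than WT in 5 of 9 in KO, 7 of 9 in P32L and 6 of 9 in R287Q, against 52.1%, 55.5% and 36.8% of all tested genes. An unadjusted p under 0.05 was found for 1, 3 and 2 of them, against 5.95%, 6.52% and 5.36% of all genes, and 0 passed the adjustment. Nfe2l1 had 115, 122 and 109 TPM in KO mice, 137, 109 and 117 in P32L, 107, 106 and 128 in R287Q and 121, 145 and 126 in WT, a log2 fold change of -0.17 in KO, -0.11 in P32L and -0.20 in R287Q, and overlapped WT in each line. Its small Maf partners had positive log2 fold changes in all 3 lines. Maff had 0.67, 1.33 and 1.46 TPM in KO mice, 1.4, 1.78 and 1.36 in P32L, 1.79, 1.2 and 1.06 in R287Q and 0.731, 0.465 and 0.598 in WT. Its log2 fold change was 0.41 in KO, 0.65 in P32L and 0.55 in R287Q (limma adjusted p = 0.693, 0.235 and 0.578). Every WT mouse was below 1 TPM, so Maff passed the minimum mean of 1 TPM only through mutant mice. That filter favours higher values in the lines, for its fold changes and for its place in the counts of this list. Mafk had 5.49, 6.18 and 7.14 TPM in KO mice, 7.57, 7.5 and 7.72 in P32L, 6.82, 6.35 and 6.38 in R287Q and 6.15, 5.9 and 4.87 in WT, at 0.13, 0.38 and 0.18 in KO, P32L and R287Q. Both genes were above all WT mice in P32L and R287Q, where 5.56% and 3.02% of all tested genes were higher without overlap. Irf1, a factor of interferon signalling that induces immune subunits, had 4.13, 3.61 and 3.57 TPM in KO mice, 3.91, 4.83 and 3.39 in P32L, 4.12, 4.54 and 5.23 in R287Q and 3.9, 3.15 and 4.02 in WT, and all R287Q mice were above WT (0.26, limma adjusted p = 0.919).

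The ubiquitin supply and the p97 unfoldase were higher in 4 of 9 tested genes in KO, 3 of 9 in P32L and 1 of 9 in R287Q, again against 52.1%, 55.5% and 36.8% of all genes. Of all genes 5.95%, 6.52% and 5.36% had an unadjusted p under 0.05 in KO, P32L and R287Q, and of this list 1, 0 and 1 genes did. Both of those were Rps27a, which encodes ubiquitin fused to a ribosomal protein and had 177, 141 and 122 TPM in KO mice, 62.7, 108 and 100.3 in P32L, 209.7, 114 and 113 in R287Q and 55.6, 86.1 and 103 in WT. Its log2 fold change was 0.87 in KO and 0.81 in R287Q (limma adjusted p = 0.621 and 0.792). Vcp, the p97 ATPase, had 47, 59.6 and 50.0 TPM in KO mice, 55.1, 49.7 and 56.9 in P32L, 46.7, 48.6 and 55.6 in R287Q and 66.4, 55.6 and 50.6 in WT, and its cofactor Nploc4 had 3.56, 4.03 and 3.24 TPM in KO mice, 3.94, 3.31 and 3.54 in P32L, 3.15, 3.41 and 4.36 in R287Q and 4.17, 4.04 and 3.64 in WT. All lines overlapped WT in Vcp and Nploc4.

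The muscle ubiquitin ligases, which mark proteins for the proteasome, were higher in 5 of 13 in KO, 8 of 13 in P32L and 3 of 13 in R287Q, against 52.1%, 55.5% and 36.8% of all genes. In each line 2 of them had an unadjusted p under 0.05, against 5.95%, 6.52% and 5.36% of all genes in KO, P32L and R287Q. Trim63 had 45.5, 48.7 and 44.4 TPM in KO mice, 50.7, 51.1 and 54.1 in P32L, 40.4, 44.0 and 44.4 in R287Q and 39.6, 33.5 and 34.6 in WT. All 9 mutant mice were above all 3 WT mice, a pattern seen in 37 of all 9152 tested genes (0.404%). The log2 fold change of Trim63 was 0.36 in KO, 0.52 in P32L and 0.25 in R287Q (limma adjusted p = 0.445, 0.0862 and 0.762). Fbxo32 had 27.3, 29.1 and 25.2 TPM in KO mice, 32.2, 27.4 and 31.4 in P32L, 18.1, 21 and 24.7 in R287Q and 23.7, 22.4 and 19.2 in WT, above WT without overlap in KO and P32L (limma adjusted p = 0.731 and 0.325). Asb2 had 42.3, 48.2 and 34.8 TPM in KO mice, 42.7, 35.9 and 43.6 in P32L, 26.3, 33.0 and 38.9 in R287Q and 49.4, 41.2 and 39.4 in WT and was lower without overlap in R287Q (-0.41, limma adjusted p = 0.839). Of all tested genes, 4.39% in KO and 5.56% in P32L were higher than WT without overlap, and 5.99% in R287Q were lower. Neither Trim63 nor Fbxo32 passed the threshold, and the members set beside them had medians of 0.052, 0.0081 and -0.071 in KO, P32L and R287Q.

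Class I presentation, which uses the peptides cut by immune proteasomes, was higher in 8 of 9 tested genes in KO, 8 of 9 in P32L and 7 of 9 in R287Q, with the same shares of all genes as background, and 0 had an unadjusted p under 0.05. The genes of the list summed to 327 to 412 TPM in KO, 329.8 to 399 in P32L, 325 to 386 in R287Q and 257 to 359.9 in WT, with WT replicate 2 the lowest. B2m, the light chain of class I molecules, had 77.5, 90.5 and 97.4 TPM in KO mice, 92.4, 92.2 and 77.5 in P32L, 81.5, 92.7 and 68.8 in R287Q and 78.1, 56.3 and 82.1 in WT. The heavy chain H2-D1 had 83.9, 112 and 117 TPM in KO mice, 107, 104 and 77.6 in P32L, 91.1, 102 and 86.4 in R287Q and 91.4, 60.4 and 90.0 in WT. Erap1, which trims peptides, had 1.32, 1.47 and 1.3 TPM in KO mice, 1.48, 1.46 and 1.5 in P32L, 1.23, 1.41 and 1.38 in R287Q and 1.7, 1.34 and 1.51 in WT. Every line overlapped WT in these 3 genes.

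Pseudogene rows were left out by the rule, and 1 of them was more abundant than its parent. Psma5-ps averaged 8.23 TPM, above the 5.26 TPM of Psma5, with 8.59, 9.80 and 8.46 in KO, 7.59, 6.73 and 8.79 in P32L, 9.29, 7.43 and 8.74 in R287Q and 7.39, 9.05 and 6.89 in WT. Psmb6-ps2 averaged 0.342 TPM and its transcript is 92.1% identical to that of Psmb6, and Psmb7-ps2 averaged 0.195 TPM with 88.8% identity to Psmb7. The transcript of Psma5-ps was not aligned with that of Psma5. Reads may be shared between them, so the level of Psma5 is uncertain.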

How the data were processed

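The authors deposited 1 table of log2 values per gene symbol and mouse. Back-transformed, 2 to the power of a value less 1, they sum to 997591 to 998739 per library, so they were read as log2(TPM + 1). FastQC, HISAT2, StringTie, DESeq2 and the build mm10 are named per the submitters' processing notes. Versions, annotation and any earlier adjustment: not given in the sources used here. The design had been written for TPM with a pseudocount of 1, which the deposited values already hold. Per the labels' protocols, libraries were made from 100 mg of muscle and 2 µg of RNA with an NEBNext Ultra kit, which does not mark strand. Of the values, 23.9% to 30.3% per library are 0. TPM keeps no depth, and short or low genes rest on few reads.

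The 9152 genes that averaged 1 TPM or more were fitted in R 4.3.3 with limma 3.58.1, using its mean-variance trend and 1 mean per group over all 12 libraries (residual degrees of freedom 8, prior 3.11). Each line was compared with WT and with both other lines, in 6 two-sided comparisons, with Benjamini-Hochberg adjustment over the 9152 genes and a threshold of 0.05. An exact permutation test of 3 against 3 mice cannot go below p = 0.1 and was not used. The procedure was run on simulated data with independent noise per gene and planted changes much larger than those of the members. That run therefore does not show how well changes of the members' size are found. Genes were placed with GENCODE M21 (49 of 50 symbols matched), and promoter letters come from RefSeq on GRCm38.p6.

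The members and the gene lists were chosen with earlier results of these data known, so no list was tested as a set. Members with values in every mouse are the 2 highest of each role, the 3 smallest p on each side per comparison with WT, the 2 smallest on each side between lines, and all immune subunits and activators. Of each of the 5 other lists, the 2 genes with the smallest p per comparison with WT were named. Psmb11 and Paaf1 were not analysed here. Same-numbered mice did not deviate together, so the replicate numbers were not used to pair them.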

Additional observations from a re-analysis of the deposited data

How the results depend on the processing

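Under each of 23 other settings, 0 members passed the threshold in any of the 6 comparisons, and 0 of 3948 recomputed results of single genes did. The lowest adjusted p of a member stood at 0.364 (KO against WT), 0.287 (P32L against WT), 0.497 (R287Q against WT), 0.233 (P32L with KO), 0.200 (R287Q with KO) and 0.385 (R287Q with P32L). The median log2 fold change over the members kept its sign in all but 11 of 138 recomputations. After removal of mitochondrial genes and 7 copies of them, all 6 medians turned, to -0.0092, -0.0029, 0.0026, 0.0096, 0.0085 and 0.0094 in the same order. The medians over all genes were then -0.050, 0.0093, 0.030, 0.057, 0.080 and 0.025, against 0.0063, 0.015, -0.036, 0.0046, -0.046 and -0.049 as deposited, so the members were above or below all genes on the same side in each comparison. The minimum of 1 TPM acted on the rescaled values and let in 49 members and 14394 genes. For R287Q with KO the members' median moved by more than the spread between mice (pooled SD of the mouse median 0.091). For P32L with WT the sign also turned after median-of-ratios scaling (-0.0048), after quantile normalization (-0.0082) and without P32L replicate 1 (-0.042). Without WT replicate 3 it turned for KO with WT (-0.038) and P32L with WT (-0.055). On leaving out 1 library the medians ran from -0.038 to 0.12, -0.055 to 0.058, -0.13 to -0.019, -0.095 to -0.0049, -0.18 to -0.087 and -0.12 to -0.040, again in that order.

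Over all genes the count of calls was 0 to 20, 0 to 28, 0 to 34, 0 to 21, 1 to 43 and 0 to 24 across the settings, in that order, against 1, 4, 0, 2, 4 and 0. The 18 same-numbered pairs of mice from different groups correlated at a median of -0.34 in their deviations from group means (1 above 0.1), and the other 36 pairs at 0.21. With the replicate number as a block, 0 members passed in each of the 6 comparisons. Depth is unknown, and 3 mice per group limit what can pass: for Psmb6 in KO with WT, the 95% interval of the log2 fold change was -0.21 to 0.35.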
